A study of Danio rerio with 11 samples.

Results

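The comparison described here set the livers of irradiated zebrafish in induced torpor (18.5-mel-rad, 4 libraries) against those of untreated zebrafish (28.5-Ctrl, 2 libraries), over every zebrafish gene of the deposited table. That table lists 32520 genes with a mean count, of which 28138 had a log2 fold change and 17979 an adjusted p-value, and only the last are called tested below. The pairing with human genes covers 9411 of the 32520 genes, and the 23109 genes outside it were kept. The 18.5-mel-rad fish were adults of the AB strain brought down to 18.5 °C in weekly steps, given melatonin at 24 µM and exposed to a whole-body gamma dose of 32.64 cGy in 2 parts, and the 28.5-Ctrl fish, also adults of that strain, stayed at 28.5 °C with no melatonin and no dose. The groups used only to show where the comparison differs were 18.5-mel (18.5 °C, 24 µM melatonin, 0 cGy, 2 libraries) and 28.5-rad (28.5 °C, 0 µM melatonin, 32.64 cGy, 3 libraries). The melatonin was dissolved in DMSO and the fish were anaesthetised with tricaine for each exposure, and neither is stated for 28.5-Ctrl fish. Temperature, melatonin, dose and these agents differ between the groups together, so their shares in a difference cannot be told apart. The sex of the fish and the number of fish behind each library are not stated in the sources used here.

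Torpor is a regulated drop in metabolic rate, and in an ectotherm such as the zebrafish body temperature and metabolism follow the water. Melatonin is the hormone of the dark phase and quietens zebrafish. The liver makes glucose, fat, bile and most plasma proteins, follows a daily clock, and in egg-laying females also makes the yolk precursor vitellogenin. Gamma rays break DNA, and cells answer through checkpoints, repair and, in tissues that divide, changes in the cell cycle.

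The files hold no value per library, so neither the values of single fish nor the overlap of the groups can be shown. Each gene is given by its estimated group means in normalised counts, by the log2 fold change of 18.5-mel-rad over 28.5-Ctrl with its standard error (SE), and by a 2-sided Wald test with Benjamini-Hochberg adjustment over all tested genes. Nothing in the sources says that the libraries of a group are separate tanks, so the tests measure a spread between libraries. The paper states that exposed fish went back to a main tank with others of their group. Where a group shared a tank, the tank cannot be told apart from the treatment. The standard errors come from the authors' fit, which shares a dispersion estimate over 14 libraries of 5 groups. The tests therefore do not measure the spread of the compared libraries alone. The means and counts are not scaled for gene length, and only the same gene is compared between groups. A group mean at or under 3 counts is treated as a floor, against which a fold is a lower bound. Symbols in capitals are those the annotation gives to the zebrafish gene.

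Primers for qPCR were designed for several of the genes. The primers are shown because they are the designed sequences by which these genes were followed, and they are taken from the study's primer list. By qPCR the paper reports significant rises of MTA1 and AMD1 and a fall of CDK19. It also gives a significant rise of a gene that its figure prints as GTP1, where the primer list has GPT2. For ODC1 it reports only a trend to a rise that was not significant. The values given below are from sequencing only. The sequences are written 5′ to 3′ in lower case.
MTA1 forward: aatccacacccatcctcaac
MTA1 reverse: atgtcaaagcagaggtcagtc
GPT2 forward: acttggatgaggacaactgc
GPT2 reverse: tggaactgacaatctggagc
AMD1 forward: tggaacttactggacgattcac
AMD1 reverse: ttgtagtcgttgaagtgggc
ODC1 forward: tgagtgtgaagtttggagcg
ODC1 reverse: gagtttggtgtcctcagagc
CDK19 forward: ctgccttgtttagttgggttg
CDK19 reverse: gcgattggacctgttttagtg
In the sequencing data MTA1 (ENSDARG00000007198), a subunit of the NuRD chromatin complex, was estimated at 583 in 18.5-mel-rad livers, against 144 in 28.5-Ctrl livers (log2 fold change 2.02 ± 0.38 SE, adjusted p = 0.000125). GPT2 (ENSDARG00000012199), which transfers amino groups between alanine and glutamate, was estimated at 251 in 18.5-mel-rad livers, against 28.5 in 28.5-Ctrl livers (3.14 ± 0.75, adjusted p = 0.00661). AMD1 (ENSDARG00000043856) and ODC1 (ENSDARG00000007377), the paired decarboxylases of polyamine synthesis, rose 3.81-fold (adjusted p = 0.00123) and 10.2-fold (adjusted p = 0.0221). CDK19 (ENSDARG00000043858), a kinase of the Mediator complex, was the member of the primer set that fell, to an estimated 9.76 in 18.5-mel-rad livers, against 54.8 in 28.5-Ctrl livers (-2.49 ± 0.52, adjusted p = 0.000783). The target transcript of the CDK19 primers was not matched to a gene name here, and its gene was taken by the human symbol.

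Of the 17979 tested genes 261 passed the test, with an adjusted p no higher than 0.1 and a log2 fold change of at least 0.58 in either direction, about 1.5-fold (1.45%), 184 higher (1.02%) and 77 lower (0.428%) in 18.5-mel-rad livers. At an adjusted p of at most 0.4, the threshold of the study's results for this group, 1074 genes passed (5.97%), 666 higher (3.7%) and 408 lower (2.27%). With the fold threshold added these were 1062 genes (5.91%), 663 higher (3.69%) and 399 lower (2.22%). Genes outside the human pairing held 146 of the 261, 104 higher and 42 lower, and passed at 1.44%, against 1.46% of the paired genes. Both group means lay above the floor for 194 of the 261 genes. Among these the 127 that rose had a median fold of 4.30 and a range of 1.61 to 95.3, and the 67 that fell were lower by a median of 2.96-fold (1.49- to 46.7-fold). The median log2 fold change was 0.03 over all tested genes, and -0.00 over the 12047 with a mean count of at least 50, whose median SE was 0.52. The p-values above use the normal distribution. With a t distribution of 9 degrees of freedom, from the 14 libraries and 5 groups of the authors' fit, 0 genes were called, the smallest adjusted p was 0.300, 35 genes were at or under an adjusted p of 0.4 and 1070 had an unadjusted p of at most 0.05, so every call below rests on the normal approximation.

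**Figure D1:**
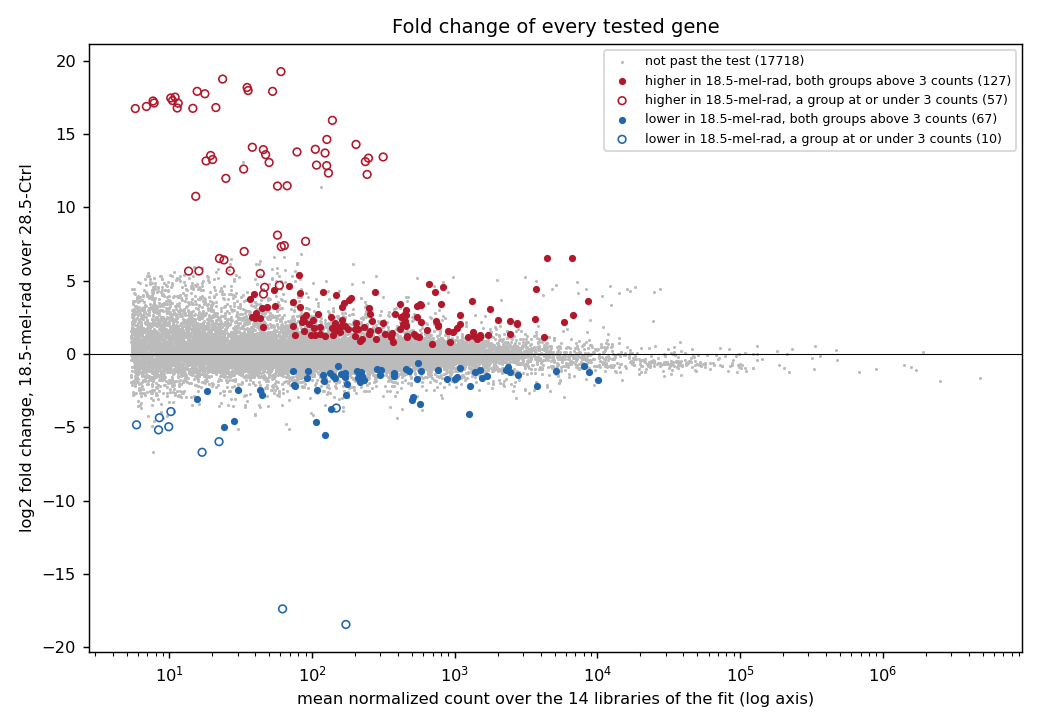
Fold change of every tested gene, with the mean normalised count over the 14 libraries of the fit on the x axis (log axis) and the log2 fold change of 18.5-mel-rad over 28.5-Ctrl on the y axis. Filled points are called genes with both group means above 3 counts (127 higher, 67 lower), open circles called genes with a group at or under 3 counts, which make up the values past 10 in either direction.

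The daily clock gave calls in both directions. NR1D1, the nuclear receptor that represses the activator genes of the clock, was estimated at 557 in 18.5-mel-rad livers, against 53 in 28.5-Ctrl livers, a 10.5-fold rise (log2 fold change 3.40 ± 0.60 SE, adjusted p = 1.67e-05). PER3, a core repressor, was estimated at 826 in 18.5-mel-rad livers, against 2541 in 28.5-Ctrl livers (-1.62 ± 0.37, adjusted p = 0.00267), and the cryptochrome cry3a fell 2.18-fold (adjusted p = 0.0149). PER2, the period gene that light induces in zebrafish, rose 1.80-fold (adjusted p = 0.0488) and cry5, of the cryptochrome and photolyase family, rose 3.25-fold (adjusted p = 0.0518). The clock repressor list has 20 tested genes and includes cry5, whose role as a repressor was not tested. Of these 20 genes 3 rose and 2 fell, 25% against the 1.45% of all tested genes, with a list median of 0.39. NR1D1, PER2 and PER3 are among the genes that the study names for this comparison, so this share is no independent evidence. Of the 20 activators and output factors 2 rose (10%, against 1.45% of all tested genes), both transcription factors of the bZIP family. These were tefa, estimated at 625 in 18.5-mel-rad livers, against 133 in 28.5-Ctrl livers (2.23 ± 0.51, adjusted p = 0.00298), and nfil3-5, estimated at 179.8 in 18.5-mel-rad livers, against 43.7 in 28.5-Ctrl livers (2.04 ± 0.61, adjusted p = 0.0654). The hour at which the livers were taken is not given in the sources used here, and its part in these values was not tested.

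Among the 37 cold and heat shock genes 2 rose and 0 fell, 5.41% against the 1.45% of all tested genes. At an adjusted p of at most 0.4 the count was 2 higher and 2 lower (10.8%, against 5.97% of all tested genes). The cold-inducible RNA-binding protein gene cirbpa was estimated at 5855 in 18.5-mel-rad livers, against 2668 in 28.5-Ctrl livers (1.13 ± 0.22, adjusted p = 0.000133), and HSPD1, the mitochondrial chaperonin, at 3160.2 in 18.5-mel-rad livers, against 1207 in 28.5-Ctrl livers (1.39 ± 0.42, adjusted p = 0.0729). None of the 15 cytosolic chaperonin and prefoldin genes passed the test (median -0.27). The 42 genes of folding in the endoplasmic reticulum gave no call either, although HSP90B1, their secretory chaperone, was estimated at 6245 in 18.5-mel-rad livers, against 27601 in 28.5-Ctrl livers (-2.14 ± 0.71, adjusted p = 0.126).

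Fat synthesis supplied some of the largest rises. Of the 37 tested genes of lipogenesis and desaturation 5 rose, 13.5% against the 1.02% of all tested genes, and 0 fell. The list median was 0.45. thrsp, a nuclear protein that promotes lipogenesis, had the largest fold of any called gene with both means above the floor, at 95.3-fold, with estimates of 9193 in 18.5-mel-rad livers, against 96.4 in 28.5-Ctrl livers (6.57 ± 1.46, adjusted p = 0.00199). Its partner MID1IP1 rose 3.91-fold (adjusted p = 0.0495). FASN, fatty acid synthase, was estimated at 2449 in 18.5-mel-rad livers, against 292 in 28.5-Ctrl livers (3.07 ± 0.67, adjusted p = 0.00151). SCD (ENSDARG00000033662), which desaturates stearoyl-CoA, was estimated at 3292 in 18.5-mel-rad livers, against 669 in 28.5-Ctrl livers (adjusted p = 0.0611). The acyl-CoA ligase acsl1b was estimated at 4821 in 18.5-mel-rad livers, against 1091 in 28.5-Ctrl livers (adjusted p = 0.054). APOD (ENSDARG00000060350), a lipid-binding lipocalin, rose 93.2-fold to an estimated 17802 in 18.5-mel-rad livers, against 191 in 28.5-Ctrl livers (6.54 ± 1.85, adjusted p = 0.0441). It was the single call among 21 apolipoprotein genes (4.76%, against 1.45% of all tested genes, median 0.16). The lipid droplet gene plin6 was at least 7.34-fold lower, with an estimate of 1.08 in 18.5-mel-rad livers, against 22.0 in 28.5-Ctrl livers. That was the single call among 28 genes of lipid uptake and lipases (3.57%, against 1.45% of all tested genes, median -0.14). None of the 38 genes of fatty acid oxidation passed the test (median 0.09).

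PCK1, which commits carbon to new glucose, was estimated at 3027 in 18.5-mel-rad livers, against 137 in 28.5-Ctrl livers, a 22.0-fold rise (log2 fold change 4.46 ± 0.94 SE, adjusted p = 0.000971). Of the 59 genes of glycolysis and gluconeogenesis 3 rose and 0 fell (5.08%, against 1.45% of all tested genes, median 0.00). At an adjusted p of at most 0.4, 5 were higher and 2 lower (11.9%, against 5.97% of all tested genes). The other calls were galk1, galactokinase, at 3.32-fold (adjusted p = 0.0177), and an aldolase named ALDOA (ENSDARG00000034470), at least 79.4-fold higher with estimates of 238 in 18.5-mel-rad livers, against 1.16 in 28.5-Ctrl livers (adjusted p = 0.0557). GYG1, the glycogen primer glycogenin, fell 4.51-fold to an estimated 1869 in 18.5-mel-rad livers, against 8433 in 28.5-Ctrl livers (adjusted p = 0.0757), and UCP2, a mitochondrial uncoupling carrier, rose 2.78-fold (adjusted p = 0.00978). GYG1 and UCP2 were picked out after their values were seen.

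In sterol synthesis CYP51A1, which demethylates lanosterol, was estimated at 321 in 18.5-mel-rad livers, against 5401 in 28.5-Ctrl livers (-4.07 ± 1.16, adjusted p = 0.0462). Of the 22 cholesterol genes 2 fell and 0 rose at the main threshold (9.09%, against 1.45% of all tested genes). At an adjusted p of at most 0.4 the list had 3 higher and 2 lower (22.7%, against 5.97% of all tested genes), with a median of -0.11. FAXDC2, a hydroxylase domain protein outside that list, fell 3.39-fold to 6649 in 18.5-mel-rad livers, against 22511 in 28.5-Ctrl livers (adjusted p = 0.00241). A pair of vitamin D hydroxylase genes, picked out after their values were seen, rose. CYP2R1, the 25-hydroxylase, was estimated at 1541 in 18.5-mel-rad livers, against 81.3 in 28.5-Ctrl livers (4.24 ± 1.00, adjusted p = 0.00496), and CYP27B1, the 1-alpha-hydroxylase, at 2156 in 18.5-mel-rad livers, against 90.6 in 28.5-Ctrl livers (4.57 ± 1.04, adjusted p = 0.00298). CYP24A1, which degrades the hormone, was estimated at 2143 in 18.5-mel-rad livers, against 3155 in 28.5-Ctrl livers (-0.56 ± 1.16, adjusted p = 0.967), and the 3 tested VDR genes, its receptor, did not pass. The vitamin D list of 12 genes was made after these values were seen, and 2 of its members passed. Its log2 fold changes were positive in 5 and negative in 7 genes, with a median of -0.39.

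GATM, which makes the creatine precursor, was estimated at 12499.8 in 18.5-mel-rad livers, against 2002 in 28.5-Ctrl livers (2.64 ± 0.75, adjusted p = 0.0441), and a glutamine synthetase gene, GLUL (ENSDARG00000099776), at 939.5 in 18.5-mel-rad livers, against 210 in 28.5-Ctrl livers (2.16 ± 0.66, adjusted p = 0.0753). With GPT2 these were the 3 genes that rose among 75 of amino acid catabolism, where 0 fell (4.00%, against 1.45% of all tested genes, median 0.20). ODC1 was estimated at 798 in 18.5-mel-rad livers, against 78.5 in 28.5-Ctrl livers (3.35 ± 0.88) and AMD1 at 208 in 18.5-mel-rad livers, against 54.5 in 28.5-Ctrl livers (1.93 ± 0.41). These were the 2 calls among 24 polyamine genes (8.33%, against 1.45% of all tested genes, median 0.03). PHYKPL, which breaks down phosphohydroxylysine, fell 2.77-fold to 173 in 18.5-mel-rad livers, against 479 in 28.5-Ctrl livers (-1.47 ± 0.25, adjusted p = 6.68e-06).

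In the growth axis IGF1, the main secreted growth factor of the liver, was estimated at 1398 in 18.5-mel-rad livers, against 293 in 28.5-Ctrl livers (2.25 ± 0.71, adjusted p = 0.0966), while IRS2 (ENSDARG00000075282), an adaptor of the insulin receptor, fell to 224 in 18.5-mel-rad livers, against 626 in 28.5-Ctrl livers (-1.48 ± 0.42, adjusted p = 0.0452). They were the calls among 30 genes (6.67%, against 1.45% of all tested genes, median -0.11). TG, thyroglobulin, which is known as a thyroid protein, fell 24.5-fold to 10.4 in 18.5-mel-rad livers, against 256 in 28.5-Ctrl livers (adjusted p = 0.000639). Among the 14 genes of thyroid hormone handling thrsp was the single call (7.14%, against 1.45% of all tested genes). The deiodinase DIO2 was estimated at 2936 in 18.5-mel-rad livers, against 2004 in 28.5-Ctrl livers (0.55 ± 0.54, adjusted p = 0.854). ABCC5, an export pump, rose 4.84-fold (adjusted p = 0.00102), the single call among 28 genes of bile acid synthesis and transport (3.57%, against 1.45%). The transcription factor atf5a fell 2.82-fold (adjusted p = 0.0436), the single call among 32 hepatocyte factors (3.125%, against 1.45%).

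Mitochondrial import and folding held 4 rises and 1 fall among 44 tested genes, 11.4% against the 1.45% of all tested genes. The import pore genes tomm40l and TOMM22 rose 2.6-fold (adjusted p = 0.0213) and 2.92-fold (adjusted p = 0.0329), and TIMM17A, of the inner membrane, rose 2.05-fold (adjusted p = 0.0757), beside HSPD1 above. The prohibitin gene PHB2 (ENSDARG00000017728) was estimated at 31.3 in 18.5-mel-rad livers, against 172 in 28.5-Ctrl livers (-2.45 ± 0.53, adjusted p = 0.00151). In the respiratory chain uqcc4, an assembly factor of complex III, rose 3.15-fold (1.65 ± 0.34, adjusted p = 0.000516) and atp5mc3b, a ring subunit of ATP synthase, fell 1.75-fold (-0.81 ± 0.25, adjusted p = 0.0831), out of 96 genes with a median of -0.04. That share of 2.08% is near the 1.45% of all tested genes. SLC25A3 (ENSDARG00000025566), the phosphate carrier, fell to 6481 in 18.5-mel-rad livers, against 15338 in 28.5-Ctrl livers (adjusted p = 0.0502). chchd3b, a cristae protein, rose 19-fold to 452 in 18.5-mel-rad livers, against 23.8 in 28.5-Ctrl livers (4.25 ± 0.74, adjusted p = 1.34e-05), and higd1a, a hypoxia-induced protein of the inner membrane, rose 8.17-fold (adjusted p = 0.000191). None of the 13 protein genes of the mitochondrial genome passed, and their median was 0.02, with MT-CO1 estimated at 353057 in 18.5-mel-rad livers, against 379449 in 28.5-Ctrl livers.

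Protein synthesis genes gave almost no call at the main threshold. The 22 cytosolic tRNA synthetase genes had 0 rises and 0 falls. At an adjusted p of at most 0.4, 9 were lower (40.9%, against 2.27% of all tested genes) and 0 higher. Of the list 17 had a negative log2 fold change, and the median was -0.92. The paper names IARS1 of this list for the same comparison, so these shares are no independent evidence. KARS1, the lysyl enzyme, was estimated at 3600.3 in 18.5-mel-rad livers, against 9483 in 28.5-Ctrl livers (-1.4 ± 0.45, adjusted p = 0.118), and IARS1, the isoleucyl enzyme, at 1508 in 18.5-mel-rad livers, against 5987 in 28.5-Ctrl livers (-1.99 ± 0.67, adjusted p = 0.147). Of the 87 cytosolic ribosomal protein genes 0 passed at either threshold. Their median was -0.63 and 83 of them had a negative log2 fold change. nop16, a nucleolar protein of ribosome assembly, rose 2.59-fold (adjusted p = 0.0853), the single call among 93 genes of that process. That share of 1.08% is below the 1.45% of all tested genes.

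Of the lists by function, mitosis held the most rises. Of 81 tested genes 9 rose (11.1%, against 1.02% of all tested genes) and 0 fell, and at an adjusted p of at most 0.4 the count was 46 higher and 0 lower, 56.8% of the list, against 3.7% of all tested genes. The log2 fold change was positive in 75 of 81, with a median of 2.45. The paper reports cell division terms for this same comparison, so the shares of this list are no independent evidence. The levels were low: the called members ranged from 27.3 to 685 counts in 18.5-mel-rad livers and from 0.534 to 64.4 in 28.5-Ctrl livers, and 12 of the list were at or under the floor in 28.5-Ctrl livers. TOP2A, the topoisomerase of dividing cells, was estimated at 685 in 18.5-mel-rad livers, against 64.4 in 28.5-Ctrl livers (3.41 ± 0.99, adjusted p = 0.0533). The spindle protein NUSAP1 was estimated at 102 in 18.5-mel-rad livers, against 7.95 in 28.5-Ctrl livers (adjusted p = 0.0184), and the spindle checkpoint kinase TTK at 89.1 in 18.5-mel-rad livers, against 5.50 in 28.5-Ctrl livers (adjusted p = 0.0436). CDK1, the kinase that starts mitosis, was estimated at 74.2 in 18.5-mel-rad livers, against 4.19 in 28.5-Ctrl livers (adjusted p = 0.0595). PBK, a mitotic kinase, rose 25.1-fold (adjusted p = 0.0216). PRC1 (ENSDARG00000005993), which bundles the central spindle, was at least 23.5-fold higher (adjusted p = 0.0418).

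ORC4, of the origin recognition complex, was estimated at 91.5 in 18.5-mel-rad livers, against 9.97 in 28.5-Ctrl livers (3.2 ± 0.97, adjusted p = 0.0736). It was the single call among 53 replication genes, whose median was 1.11. That share of 1.89% is near the 1.45% of all tested genes. At an adjusted p of at most 0.4, 7 of the list were higher (13.2%, against 3.7% of all tested genes) and 1 lower. In the list of homologous recombination, which also holds MTA1 of the NuRD complex, 4 of 47 genes rose. That is 8.51%, against 1.02% of all tested genes that rose, with a list median of 0.92. Besides MTA1 they were PARPBP, which restrains recombination, at 19.1-fold (adjusted p = 0.0488), the crosslink repair helicase fancm at 5.41-fold (adjusted p = 0.0506), and BARD1, the partner of BRCA1, at least 7.31-fold higher (adjusted p = 0.0667). BABAM2, of the BRCA1-A complex, rose 1.86-fold (0.89 ± 0.24, adjusted p = 0.0221), the single call among 27 checkpoint genes (3.70%, against 1.45% of all tested genes). None of 19 end-joining genes and none of 38 excision and mismatch repair genes passed. At an adjusted p of at most 0.4, 0 of the excision and mismatch repair genes were higher and 2 lower. That share of 5.26% is near the 5.97% of all tested genes.

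Of 52 genes of the p53 response 1 rose and 1 fell, 3.85% against the 1.45% of all tested genes, or a single gene each way. The call that rose was cdkn1ca, which codes for a cyclin-dependent kinase inhibitor. It was estimated at 13.8 counts in 18.5-mel-rad livers and under the floor in 28.5-Ctrl livers, at least 4.61-fold higher (adjusted p = 1.53e-05). mcl1a, an anti-apoptotic gene of the Bcl-2 family, fell to 1532 in 18.5-mel-rad livers, against 4074 in 28.5-Ctrl livers (-1.41 ± 0.41, adjusted p = 0.0488). cdkn1a, the inhibitor that p53 induces, picked out after its values were seen, was estimated at 32.9 in 18.5-mel-rad livers, against 6.85 in 28.5-Ctrl livers (2.27 ± 0.93, adjusted p = 0.32). Among the 52 cyclins, cyclin-dependent kinases and their inhibitors, beside cdkn1ca, ccnl1b, a cyclin of RNA processing, rose 2.23-fold (adjusted p = 0.0206) and CDK19 fell 5.62-fold. That list was called at 5.77%, against 1.45% of all tested genes. None of the 7 sirtuin genes passed, their log2 fold changes lying between -0.53 and 0.43.

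**Figure D2:**
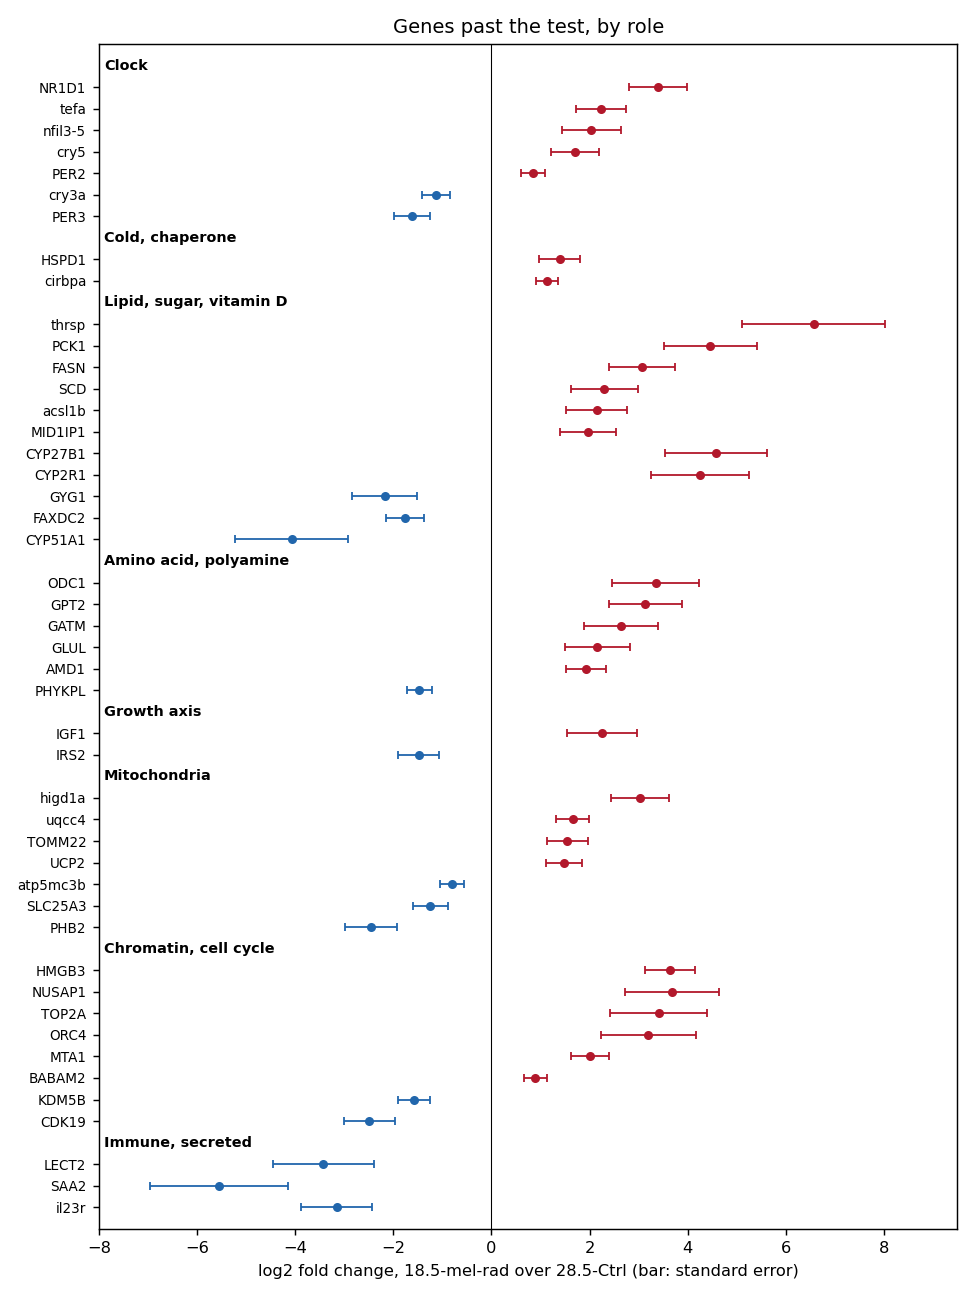
Log2 fold change of 18.5-mel-rad over 28.5-Ctrl (x axis) for a chosen part of the called genes with both group means above 3 counts, grouped by role. Each is the deposited value with its standard error. thrsp lies farthest to the right at 6.57 and SAA2 farthest to the left at -5.55.

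**Figure D3:**
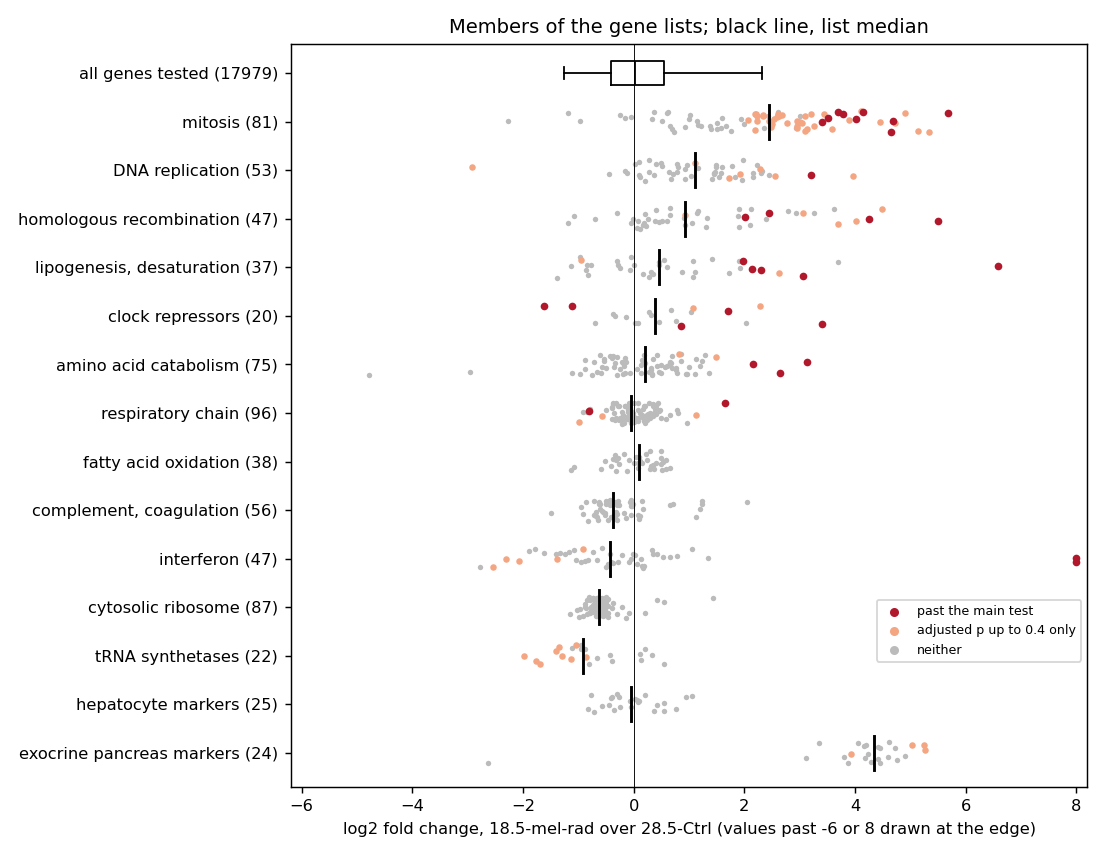
Log2 fold change of 18.5-mel-rad over 28.5-Ctrl (x axis) of each tested member of 14 gene lists, with the number of members in brackets, the list median as a black line and all tested genes as a box (quartiles, whiskers from the 5th to the 95th percentile). The mitosis list is centred at 2.45 and the exocrine pancreas markers at 4.34, while fatty acid oxidation and the hepatocyte markers are centred at 0.09 and -0.05.

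Further genes were named for their large Wald statistics. HMGB3 (ENSDARG00000056725), a chromatin protein, was estimated at 2808 in 18.5-mel-rad livers, against 226 in 28.5-Ctrl livers, a 12.4-fold rise (log2 fold change 3.64 ± 0.51 SE, adjusted p = 7.36e-09), and a paralog of the same name also passed. asph, an aspartate beta-hydroxylase, rose 2.33-fold (1.22 ± 0.18, adjusted p = 3.75e-08). LANCL1, which binds glutathione, was estimated at 843 in 18.5-mel-rad livers, against 133 in 28.5-Ctrl livers (2.66 ± 0.46, adjusted p = 1.18e-05), and NUP37, a nuclear pore subunit, at 551 in 18.5-mel-rad livers, against 128 in 28.5-Ctrl livers (2.1 ± 0.39, adjusted p = 8.01e-05). FAM210A, a mitochondrial protein, rose 3.85-fold (adjusted p = 0.000241) and lonrf1 2.79-fold (adjusted p = 0.000292).

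Among the falls named in the same way, KDM5B (ENSDARG00000003098), a demethylase of histone H3, fell 2.98-fold to 592 in 18.5-mel-rad livers, against 1766 in 28.5-Ctrl livers (-1.58 ± 0.33, adjusted p = 0.000971), and SAP30L, of the Sin3 deacetylase complex, fell 2.07-fold (adjusted p = 0.00123). The linker histone H1-10 was estimated at 664 in 18.5-mel-rad livers, against 2142 in 28.5-Ctrl livers (adjusted p = 0.0118). The forkhead factor foxp1b fell 3.17-fold (adjusted p = 0.00158), the scaffold gene CASKIN2 3.69-fold (adjusted p = 0.000244) and the microtubule-binding gene EML1 13.3-fold (adjusted p = 0.00221). si:ch211-1i11.3, which is paired with the human kinase MAP3K6, was estimated at 237 in 18.5-mel-rad livers, against 1773 in 28.5-Ctrl livers (-2.90 ± 0.63, adjusted p = 0.00161).

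Immune and acute phase genes gave few calls. LECT2 (ENSDARG00000090889), a secreted factor of the liver that attracts leukocytes, was estimated at 126 in 18.5-mel-rad livers, against 1351 in 28.5-Ctrl livers, 10.7-fold lower (-3.42 ± 1.02, adjusted p = 0.065). It was the single call among 18 acute phase genes (5.56%, against 1.45% of all tested genes). SAA2, a serum amyloid gene picked out after its values were seen, was estimated at 5.84 in 18.5-mel-rad livers, against 273 in 28.5-Ctrl livers (-5.55 ± 1.4, adjusted p = 0.0133). The cytokine receptor gene il23r, paired with human IL12RB2, fell to 201 in 18.5-mel-rad livers, against 1789.5 in 28.5-Ctrl livers (-3.15 ± 0.72, adjusted p = 0.00315). Of 47 interferon genes 2 were called higher (4.26%, against 1.02% of all tested genes). These were mxg and ifit15, both at or under the floor in both groups, so they have no fold. The list median was -0.42. At an adjusted p of at most 0.4, 2 members were higher and 5 lower, together 14.9%, against 5.97% of all tested genes. The antiviral gene RSAD2 was estimated at 10.9 in 18.5-mel-rad livers, against 63.7 in 28.5-Ctrl livers (-2.55 ± 1.06, adjusted p = 0.34). None of 56 complement and coagulation genes passed, 44 of them having a negative log2 fold change (median -0.37).

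The study names 29 tested genes for this comparison, chosen on these same samples, so their counts are no independent evidence of a direction. Called members of the clock, recombination, checkpoint, polyamine, p53, cyclin, amino acid catabolism and glycolysis lists are among them. The shares of those lists are therefore not independent either. The same holds for the other lists, since all 63 were chosen with earlier results of these data known. At the main threshold 12 rose and 4 fell, and all 29 were at an adjusted p of at most 0.4. EDF1, a transcriptional coactivator, was estimated at 1574 in 18.5-mel-rad livers, against 2949.7 in 28.5-Ctrl livers (-0.91 ± 0.22, adjusted p = 0.00851). The other 13 did not pass the main threshold. KIF25, a kinesin, was estimated at 233 in 18.5-mel-rad livers, against 42.0 in 28.5-Ctrl livers (adjusted p = 0.124), and PDP1, which activates pyruvate dehydrogenase, at 822 in 18.5-mel-rad livers, against 400 in 28.5-Ctrl livers (adjusted p = 0.374). EXOC1, of the exocyst, was estimated at 1157 in 18.5-mel-rad livers, against 720.4 in 28.5-Ctrl livers (adjusted p = 0.112), and the cyclin gene ccnp at 9.12 in 18.5-mel-rad livers, against 43.5 in 28.5-Ctrl livers (adjusted p = 0.314). LONP2, a peroxisomal protease, was estimated at 1151 in 18.5-mel-rad livers, against 3474 in 28.5-Ctrl livers (adjusted p = 0.271), and the B-cell factor tnfsf13b at 4.96 in 18.5-mel-rad livers, against 36.3 in 28.5-Ctrl livers (adjusted p = 0.187).

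Fitted values past 10 on the log2 scale came from genes at or under the floor in at least one of the groups. Of the 184 genes called higher 37 were at or under the floor in 28.5-Ctrl livers only, with a median of 26.8 counts in 18.5-mel-rad livers (3.30 to 238), and 20 were at or under the floor in both groups. In 28.5-rad livers all of these 20 were estimated above 50 counts, with a median of 274, while in 18.5-mel-rad livers they were between 0.393 and 2.70. Their fitted log2 fold changes of 10.75 to 13.93, with SEs of 2.52 to 3.72, are no measure of a rise. Of the 77 called lower 9 were at or under the floor in 18.5-mel-rad livers only and 1 in both groups. Leaving out the genes under the floor in both groups left 240 calls, and leaving out those under it in either left 194.

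Genes of hormones and other secreted peptides, grouped here as an islet list, were among these calls. sst1.2 and sst2, somatostatin genes, were estimated at 42.7 and 16.5 counts in 18.5-mel-rad livers and under the floor in 28.5-Ctrl livers, at least 14.2-fold (adjusted p = 2.4e-09) and 5.50-fold higher (adjusted p = 2.11e-07). Of the others GCG (ENSDARG00000040907), a glucagon gene, was at least 11.1-fold higher (adjusted p = 7.87e-06) and penka, a proenkephalin gene, at least 1.38-fold (adjusted p = 0.000125). In the islet list of 15 genes, made after these values were seen, 5 were called higher and 12 were at or under the floor in 28.5-Ctrl livers. The list summed to 701 counts in 18.5-mel-rad, 579 in 28.5-Ctrl and 2155 in 28.5-rad livers. penka was estimated at 4.15 in 18.5-mel-rad and 537 in 28.5-rad livers. Insulin itself, ins, was estimated at 73.1 in 18.5-mel-rad livers, against 1.02 in 28.5-Ctrl livers (6.17 ± 2.92, adjusted p = 0.464). In a muscle list made in the same way 6 of 14 genes were called higher and 1 lower, with 11 at or under the floor in 28.5-Ctrl livers. One of those called higher, an ACTA1 gene (ENSDARG00000036371), was at or under the floor in both groups and has no fold. Over all tested genes 1.02% were called higher, and both lists were chosen for such values. The muscle list summed to 746 counts in 18.5-mel-rad livers and 660 in 28.5-Ctrl livers. The troponin gene tnni1d was at least 4.84-fold higher (adjusted p = 0.000125), and myoglobin, mb, was estimated at 407 in 18.5-mel-rad livers, against 509.8 in 28.5-Ctrl livers (-0.32 ± 0.73, adjusted p = 0.968).

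Marker lists of cell types place these values. None of 25 hepatocyte markers passed, their median was -0.05 and their summed estimates were 3652970 counts in 18.5-mel-rad livers and 3884970 in 28.5-Ctrl livers, so both groups carried the RNA of the labelled tissue. The 24 markers of exocrine pancreas, which lies beside the liver in zebrafish, had a median of 4.34 and a positive log2 fold change in 23 genes. They summed to 424140 counts in 18.5-mel-rad livers and 21612 in 28.5-Ctrl livers. None passed the main test, with SEs of 1.41 to 2.74. At an adjusted p of at most 0.4, 4 were higher (16.7%, against 3.7% of all tested genes). Among them was a syncollin gene, SYCN, at 4436 in 18.5-mel-rad livers, against 136 in 28.5-Ctrl livers (adjusted p = 0.23). The part of pancreatic or intestinal RNA in the islet calls and in other calls was not tested. In bulk tissue a change in the share of a cell type and a change of RNA per cell cannot be told apart. Oocyte markers summed to 480.1 counts in 18.5-mel-rad livers and 1073 in 28.5-Ctrl livers, and enterocyte markers to 28989 in 18.5-mel-rad livers and 30927 in 28.5-Ctrl livers. Lymphocyte markers summed to 809 in 18.5-mel-rad livers and 645 in 28.5-Ctrl livers, and erythrocyte markers to 2607 in 18.5-mel-rad livers and 1473 in 28.5-Ctrl livers. No member of these 4 lists passed the main test. The stellate and fibroblast list had a median of 0.94 with 0 of 23 called.

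**Figure D4:**
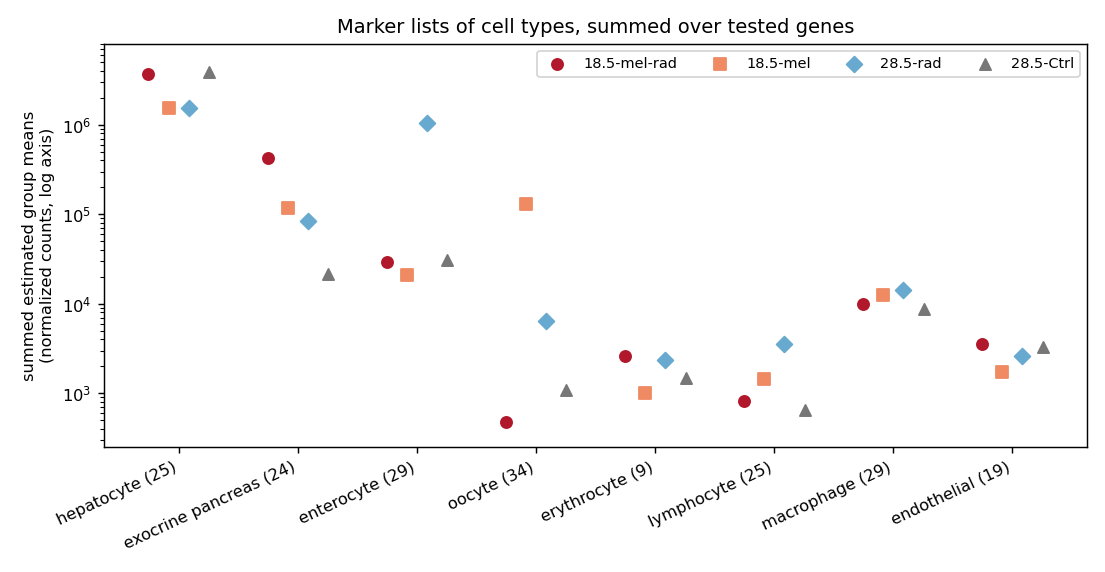
Summed estimated group means (y axis, normalised counts, log axis) of the tested markers of 8 cell types, with the number of markers in brackets, in 18.5-mel-rad, 18.5-mel, 28.5-rad and 28.5-Ctrl livers. The 18.5-mel-rad point stands highest for exocrine pancreas (424140), the 18.5-mel point for oocytes (130223) and the 28.5-rad point for enterocytes (1041840).

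The vitellogenin genes were high in both groups. vtg1 was estimated at 4542200 in 18.5-mel-rad livers, against 14200100 in 28.5-Ctrl livers (-1.64 ± 1.3, adjusted p = 0.788) and vtg2 at 2306150 in 18.5-mel-rad livers, against 8083260 in 28.5-Ctrl livers (-1.81 ± 1.31, adjusted p = 0.745). The estrogen receptor gene ESR1 was estimated at 3358 in 18.5-mel-rad livers, against 3215 in 28.5-Ctrl livers (0.06 ± 1.13, adjusted p = 1), and none of the 11 genes of this list passed. How reads that match several similar vitellogenin genes were counted is not stated in the sources used here, so the split between them is uncertain. Vitellogenin is made by females, and the part of the sex of the fish in any value here was not tested.

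The comparison was then set beside the groups that carry only the cold and melatonin or only the dose. Both share the 28.5-Ctrl libraries, so the difference of the log2 fold changes was tested, with the variance of the shared controls removed. Over 27662 genes 18.5-mel-rad differed from 18.5-mel in 5228 (18.9%), 1435 higher (5.19%) and 3793 lower (13.7%), and from 28.5-rad in 2918 (10.5%), 707 higher (2.56%) and 2211 lower (7.99%). With the variances of the comparisons added and none removed, a computation that counts the controls more than once, the counts were 1035 and 3. Of the 184 genes called higher 23 were also higher and 9 lower than in 18.5-mel, and 55 higher and 19 lower than in 28.5-rad. Of those 19 genes 16 were at or under the floor in both 18.5-mel-rad and 28.5-Ctrl livers, so their fitted rise is no measure of a rise. Of the 77 called lower 13 were also lower and 9 higher than in 18.5-mel, and 37 lower and 0 higher than in 28.5-rad. The fold change that chose these genes is part of each difference.

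Single genes of several roles differed from the dose alone, while most members of their lists did not. Against 28.5-rad livers 4 of 37 cold and heat shock genes were higher and 2 lower, as were 2 and 2 of 20 clock repressors and 5 and 3 of 37 lipogenesis genes. Over all genes compared with 28.5-rad livers 2.56% were higher and 7.99% lower. cirbpa was estimated at 5855 in 18.5-mel-rad livers, against 2569.6 in 28.5-rad livers, a difference of 1.19 ± 0.19 SE on the log2 scale (adjusted p = 1.28e-06). PER3 was estimated at 826 in 18.5-mel-rad livers, against 2565 in 28.5-rad livers (-1.63 ± 0.32, adjusted p = 9.5e-05). SCD was estimated at 3292 in 18.5-mel-rad livers, against 451 in 28.5-rad livers (2.87 ± 0.60, adjusted p = 0.000237), and MTA1 at 583 in 18.5-mel-rad livers, against 180.2 in 28.5-rad livers (1.69 ± 0.34, adjusted p = 0.000104). IGF1 was estimated at 1398 in 18.5-mel-rad livers, against 275 in 28.5-rad livers (adjusted p = 0.00559) and GATM at 12499.8 in 18.5-mel-rad livers, against 2001 in 28.5-rad livers (adjusted p = 0.00272). Of the 25 hepatocyte markers 9 were higher and 0 lower than in 28.5-rad livers (median difference 1.43), with summed estimates of 3652970 counts in 18.5-mel-rad livers and 1542050 in 28.5-rad livers, and their part in such differences was not tested. NR1D1 was estimated at 557 in 18.5-mel-rad livers, against 461 in 28.5-rad livers, and its difference of 0.27 ± 0.52 did not pass (adjusted p = 0.998).

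The interferon genes stood lower than with the dose alone. Of 47 genes 31 were lower than in 28.5-rad livers and 0 higher, beside 7.99% lower of all genes compared, with a median difference of -2.05. RSAD2 was estimated at 10.9 in 18.5-mel-rad livers, against 412 in 28.5-rad livers (-5.24 ± 0.94, adjusted p = 1.68e-05). Beside this, 25 of 29 enterocyte markers were lower than in 28.5-rad livers, where they summed to 1041840 counts. Of the immune cell markers, 12 of 25 lymphocyte genes (median difference -2.45), 8 of 29 macrophage genes (-1.15) and 4 of 15 neutrophil genes (-1.37) were lower than in 28.5-rad livers and 0 were higher. The part of intestinal or immune cell RNA in 28.5-rad livers in these differences was not tested.

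Against torpor without the dose, 2 of the 5 called genes of fat synthesis were higher. Of the 37 genes of the list 7 were higher and 5 lower, beside 5.19% higher and 13.7% lower of all genes compared. acsl1b was estimated at 4821 in 18.5-mel-rad livers, against 272 in 18.5-mel livers (4.15 ± 0.63, adjusted p = 3.16e-09) and MID1IP1 at 1178 in 18.5-mel-rad livers, against 104 in 18.5-mel livers (3.50 ± 0.57, adjusted p = 4.65e-08). FASN was estimated at 2449 in 18.5-mel-rad livers, against 4636 in 18.5-mel livers (-0.92 ± 0.66, adjusted p = 0.454), SCD at 3292 in 18.5-mel-rad livers, against 4328 in 18.5-mel livers (adjusted p = 0.913) and thrsp at 9193 in 18.5-mel-rad livers, against 5194 in 18.5-mel livers (adjusted p = 0.92), and these differences did not pass. CYP27B1 was estimated at 2156 in 18.5-mel-rad livers, against 184 in 18.5-mel livers (3.55 ± 1.03, adjusted p = 0.00661). Of the 87 cytosolic ribosomal protein genes 83 were higher than in 18.5-mel livers (median difference 2.39), beside 5.19% of all genes compared. The yolk gene vtg1 was estimated at 4542200 in 18.5-mel-rad livers, against 79809 in 18.5-mel livers (5.83 ± 1.3, adjusted p = 0.000195). Of the 25 hepatocyte markers 3 were higher and 0 lower than in 18.5-mel livers (median difference 0.97). They summed to 3652970 counts in 18.5-mel-rad livers and 1550710 in 18.5-mel livers, and their part in these differences was not tested.

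Mitosis genes lay lower than in 18.5-mel livers in 68 of 81, beside 13.7% lower of all genes compared (median difference -3.46). NUSAP1 was estimated at 102 in 18.5-mel-rad livers, against 829 in 18.5-mel livers (-3.02 ± 0.86, adjusted p = 0.00567). Against 28.5-rad livers 1 mitosis gene was higher and 4 were lower, a smaller share than the 10.5% of all genes compared. Oocyte markers were lower than in 18.5-mel livers in 32 of 34 genes and summed there to 130223 counts. nanog, a transcription factor that the zebrafish egg supplies, was estimated at 7.89 in 18.5-mel-rad livers, against 4595 in 18.5-mel livers. The part of oocyte RNA in 18.5-mel livers in the differences of mitosis, ribosome and other genes was not tested.

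**Figure D5:**
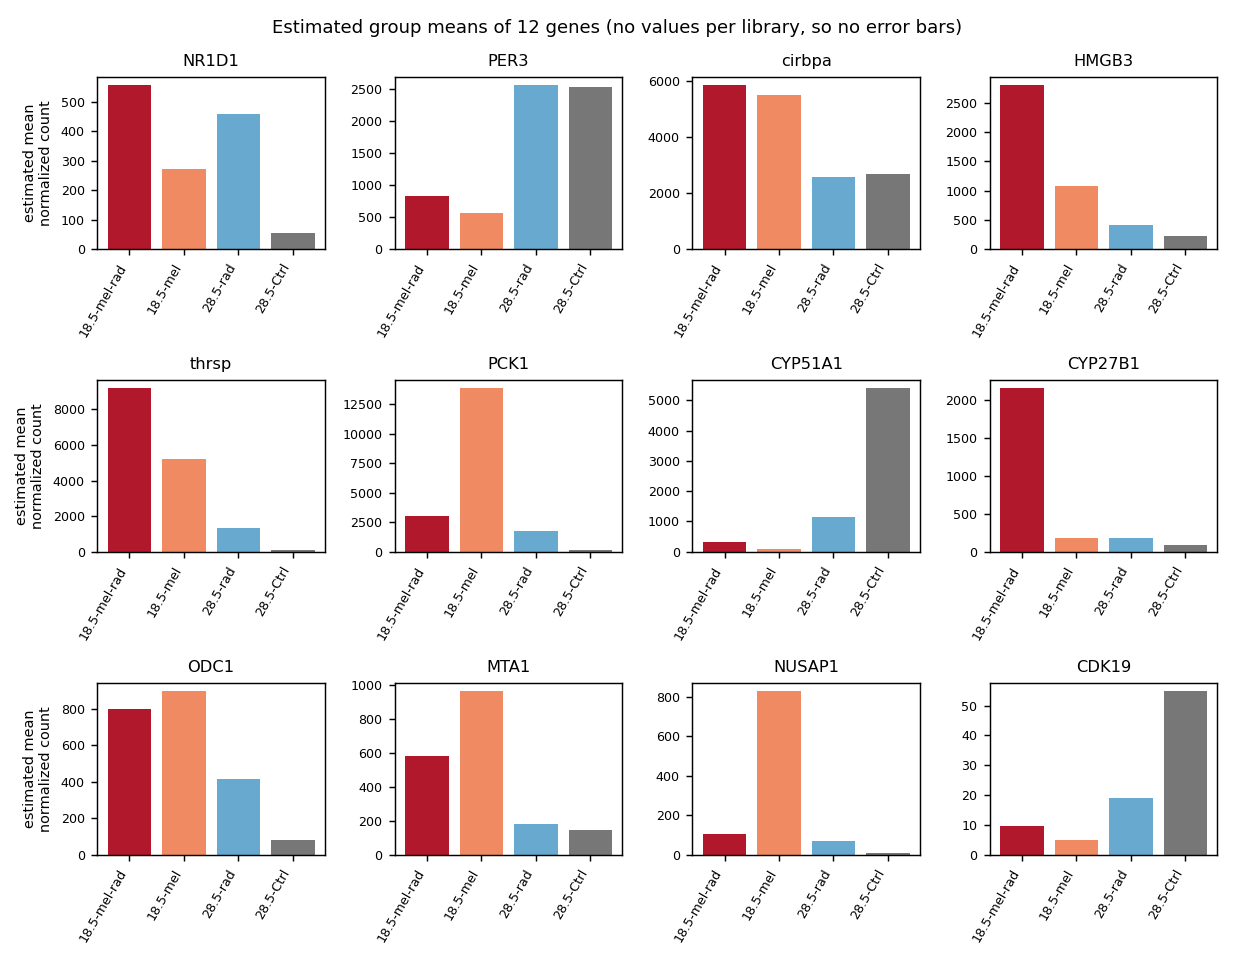
Estimated mean normalised counts (y axis, from 0) of 12 called genes in 18.5-mel-rad, 18.5-mel, 28.5-rad and 28.5-Ctrl livers, without error bars because the files give no value per library. For cirbpa the bars of 18.5-mel-rad and 18.5-mel livers stand above the others, for PER3 below them (826 in 18.5-mel-rad and 556 in 18.5-mel livers), NR1D1 is lowest in 28.5-Ctrl livers, and CYP27B1 reaches 2156 counts in 18.5-mel-rad livers, against 184 in 18.5-mel, 179 in 28.5-rad and 90.6 in 28.5-Ctrl livers.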

How the data were processed

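Liver RNA of the groups named above was sequenced (TruSeq kit, Illumina NextSeq). The authors used FastQC for quality checks, Cutadapt for trimming, STAR for alignment to GRCz11 and HTSeq for counting, and compared the groups with DESeq2 over 14 libraries of 5 groups. Versions are not given in the sources used here. The deposited tables hold, for each gene, a mean of size-factor normalised counts over those libraries, which is a signal and not a count per library. They also hold a log2 fold change over 28.5-Ctrl with its standard error, not shrunken, in log2 units as the authors' fit gave it. The deposited Wald statistic is a score, their quotient. The deposited p-value is the 2-sided Wald value, adjusted by the authors after a filter on low means. These columns are the authors' own comparison, and they are the basis of every value here because no value per library was available to refit. Library depths are therefore unknown here, and no column of a single library was used.

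From the deposited values the Wald p was computed again from a normal distribution, with Benjamini-Hochberg adjustment across 17979 genes, those whose adjusted p was deposited. The values differ from the deposited ones by at most 4.25e-08. Group means were estimated from the mean count and the fold changes of the groups. The 18.5-rad group, whose 3 libraries are not used here, was set to the mean of the 28.5-rad and 18.5-mel-rad log2 fold changes. The means thus carry no error of their own, and precision is given by the standard error of the fold change. Differences from 18.5-mel and 28.5-rad were tested after the variance of the shared 28.5-Ctrl libraries was removed, using a dispersion estimated from the 3 standard errors of each gene, with means held at or above 0.5 counts and the variance at or above 0.8 times that of the groups compared. On simulated data of 6000 genes for 18.5-mel-rad against 28.5-Ctrl, 10% of genes changed by 1 and 47% of genes changed by 2 on the log2 scale were called. The share of changed genes that is called in the deposited data was not tested.

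Genes were named by rule: the 15 called genes each way with the largest Wald statistic at a mean count of at least 50, 5 each way outside the human pairing, up to 6 called members of each gene list (or 2 members as values where none passed), any member of a list of 15 or fewer, the genes the study names, and the 8 called genes each way that differed most from 18.5-mel and from 28.5-rad. Genes named outside it are marked in the text, and some that the rule names are not reported here. The members and the 63 lists were chosen with earlier results of these data known. The lists matched 2592 entries and 118 names were not found. Alternatives changed thresholds, the null hypothesis, the reference distribution, the filter, the gene set, the centring and the treatment of shared controls. Python 3.11.15, pandas 2.3.3, NumPy 2.4.6, SciPy 1.17.1 and matplotlib 3.10.9 were used.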

Additional observations from a re-analysis of the deposited data

Results flagged for a closer look

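Called genes are given here whose fold change differed from that of 18.5-mel or of 28.5-rad by a test of the difference itself, from the 8 largest each way, at an adjusted p of at most 0.1 over 27662 genes. The fold change over 28.5-Ctrl that chose them is part of each difference, and 28.5-rad gave no called gene that had fallen and was higher.

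Against 18.5-mel, acsl1b was higher by 4.15 on the log2 scale and MID1IP1 by 3.50. rn7sl1, the RNA of the signal recognition particle, was higher by 3.57, LOXL4, a lysyl oxidase, by 3.02, the linker histone gene H1-10 by 2.12, the myosin gene MYO18A by 1.78 and atp5mc3b by 0.96. The differences below 0 were -7.89 for sox19b, a transcription factor gene of the early zebrafish embryo, -9.60 for zgc:152968, -3.68 for zgc:113210, -5.30 for TG, -2.44 for mibp and -7.22 for ncam3. sox19b was estimated at 4.38 in 18.5-mel-rad livers, against 1039 in 18.5-mel livers, beside oocyte markers that summed to 480.1 counts in 18.5-mel-rad livers and 130223 in 18.5-mel livers, whose part in these differences was not tested. si:ch211-114c12.5 at -19.15 and si:ch211-77g15.32 at -17.65 were at or under 3 counts in 18.5-mel-rad livers, so these fitted differences are no folds.

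Against 28.5-rad, the clock factor gene nfil3-5 was higher by 2.86, SCD by 2.87, HMGB3 by 2.76, NUP37 by 2.01, LANCL1 by 1.95, MTA1 by 1.69, FSTL1, a secreted glycoprotein gene, by 1.22 and cirbpa by 1.19. The differences below 0 were -1.25 for EDF1, -2.80 for PHB2, -1.46 for carf, -4.04 for sox19b, -2.36 for rnf213b and -1.63 for PER3. The fitted differences of si:ch211-114c12.5 at -26.35 and si:ch211-77g15.32 at -25.05 are again no folds.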

How the results depend on the processing

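The 261 calls became 1074 at an adjusted p of at most 0.4, 1062 with the fold threshold added, 76 (63 higher, 13 lower) in a Wald test against a log2 fold change of at most 0.58, and 117 when adjusted over genes paired with human genes only, where fewer genes are tested. With a t distribution of 9 degrees of freedom 0 remained by count, with 1070 genes at an unadjusted p of at most 0.05. The count was 187 at an adjusted p of at most 0.05, 262 with no fold threshold, 218 with no filter on low means, 243 at a mean count of at least 50 and 264 after centring. Leaving out genes under 3 counts in both groups gave 240 and in either group 194, both chosen after seeing the data. The differences from 18.5-mel and from 28.5-rad numbered 5228 and 2918, against 1035 and 3 with the variances added. Another assumption on 18.5-rad moved 9 of 236 estimated means of named genes by over 1.5 times. No paired analysis was possible because the files hold no value per library, and leaving out each replicate could not be run for the same reason. With 2 control libraries, the fold changes rest on a control mean whose spread cannot be shown.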
